A study of Homo sapiens with 15 samples.

Results

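The 10 genes described here are regulators of mitochondrial cell death from the BCL2 family. They were taken by symbol from 3 deposited gene tables, and all 10 (BCL2, BCL2L1, MCL1, BCL2L11, BMF, BIK, BBC3, PMAIP1, BAX and BAK1) were listed in every table. The tables hold 16109 genes in all, 11192 of them in all 3 tables. Messenger RNA was sequenced from 2 established human cell lines to ask how expression changes with MYCi975, a small-molecule inhibitor of MYC, the transcription factor. PC3 is a prostate cancer line with a high level of its own MYC. P493-6, by its label a line from Burkitt lymphoma, makes MYC in excess from a construct that tetracycline switches off.

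Cells were treated for 24 h, with 3 libraries in each of 5 groups. PC3 cells received 8 µM MYCi975 dissolved in DMSO, and their controls received DMSO. P493-6 cells received MYCi975 at 6 µM, also in DMSO, or tetracycline at 0.1 µg/ml, which was dissolved in water, and both were set against the same P493-6 DMSO libraries. The tetracycline comparison therefore also differs in vehicle, and a tetracycline effect that does not pass through MYC cannot be told apart from the loss of MYC. The doses of MYCi975 differ between the lines, so line and dose cannot be told apart either. The labels do not say that libraries came from separate cultures, so p-values measure the spread between libraries, which may be technical.

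BCL2 family proteins decide whether the outer mitochondrial membrane is breached, the step that releases cytochrome c and starts the caspase cascade. BCL2, BCL-xL (the product of BCL2L1) and MCL1, the guardians, hold the membrane closed, BAX and BAK1 form the pores, and the BH3-only proteins relay stress signals by binding the guardians or by activating the pore formers directly. MYC is known to push cells towards apoptosis as well as growth, and lymphoid tumours driven by MYC often carry changes in this family, so its balance is of interest when MYC is reduced or inhibited.

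The libraries held 8162582 to 15926008 counted reads, so a gene at 1 CPM (its count per 1000000 reads of that library) rested on 8.16 to 15.9 reads. MYC messenger RNA, the check on the labels, stood at 152, 145 and 149.8 CPM in the tetracycline libraries, against 4692, 4701 and 4791 CPM in P493-6 DMSO libraries. MYCi975 did not lower it: MYC was at 5138, 5084 and 5132 CPM with MYCi975 in P493-6, and in PC3 at 378, 359 and 386 CPM with MYCi975 against 301, 300.4 and 309 CPM with DMSO. All 5 epithelial markers looked up were listed in PC3, with a summed level of 1143 to 1231 CPM with MYCi975 and 1408 to 1444 CPM with DMSO, and none of 6 B cell markers was listed there. All 6 B cell markers were listed in P493-6, with summed levels of 1799 to 1849 CPM with MYCi975, 4929 to 4979 CPM with tetracycline and 1665 to 1715 CPM with DMSO.

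Levels of the members were first compared between genes, per kilobase (kb) of merged exon, since CPM favours long transcripts. Coordinates are those of the files, on hg38. BCL2L1, which encodes the guardian BCL-xL and lies on chr20:31664452-31723989, led in PC3 at 96.1 CPM per kb with MYCi975 and 96.2 CPM per kb with DMSO. MCL1, a short-lived guardian on chr1:150574551-150579738, was second there at 55.7 CPM per kb with MYCi975 and 40.8 CPM per kb with DMSO. In P493-6 BCL2L1 was far lower, at 6.95 CPM per kb with MYCi975, 26.3 CPM per kb with tetracycline and 6.61 CPM per kb with DMSO. MCL1 led all members with tetracycline at 103.4 CPM per kb. In the MYCi975 and DMSO groups of P493-6 the leader was PMAIP1 on chr18:59899948-59904306, which encodes the BH3-only protein NOXA, a partner of MCL1, at 59.6 CPM per kb with MYCi975 and 54.6 CPM per kb with DMSO. BCL2, the founding guardian on chr18:63123346-63320128, was lowest in all 5 groups, at 0.120 CPM per kb in PC3 DMSO and 1.75 CPM per kb in P493-6 with tetracycline. Its exons span 11765 bases in the GENCODE v29 annotation, and per kb of coding sequence BBC3 instead of BCL2 was lowest in PC3 with DMSO and in P493-6 with tetracycline. Coding length also put PMAIP1 above MCL1 with tetracycline and in PC3 with MYCi975. These orders are descriptions without a test, and the exon capture of the library kit may recover genes unequally.

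**Figure D1:**
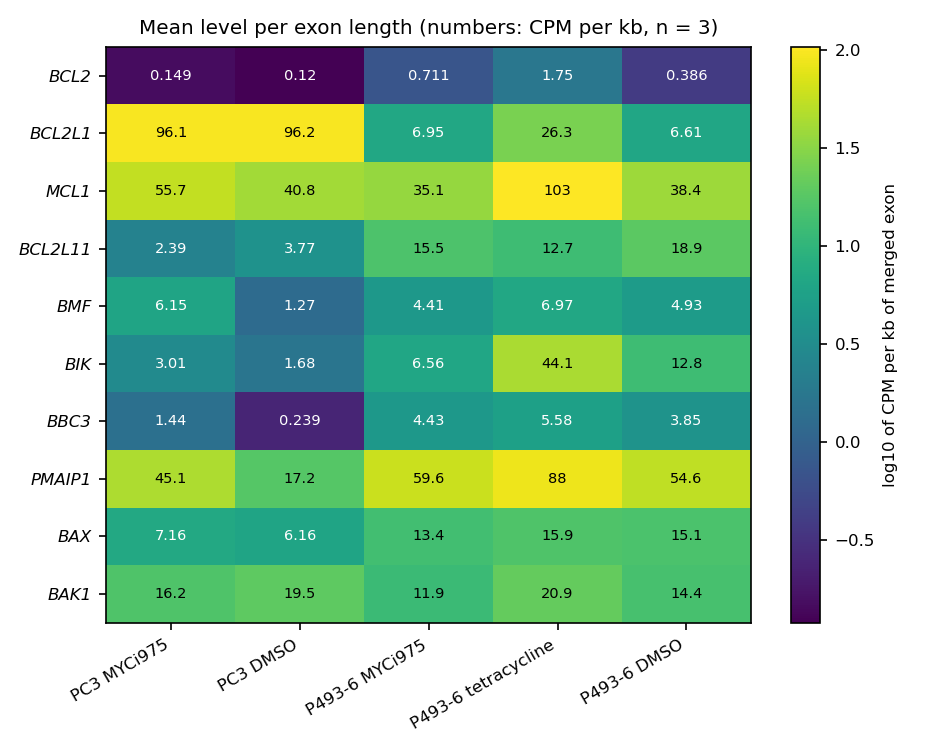
Mean level of each member in each group, as CPM per kb of merged exon (number in the cell, n = 3 libraries) with the colour on a log10 scale. BCL2L1 stands at 96.1 CPM per kb with MYCi975 and 96.2 CPM per kb with DMSO in PC3, and MCL1 reaches 103.4 CPM per kb in P493-6 with tetracycline.

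The lines differed in almost every member before treatment. PC3 DMSO against P493-6 DMSO gave 9 of 10 members called, that is with a limma p below 0.05 after Benjamini-Hochberg adjustment. The background was 84.8% of 11240 genes called (41.8% higher and 43% lower), so the count itself is near the background. BCL2L1 averaged 319 ± 8.9 CPM in PC3 and 21.9 ± 3.5 CPM in P493-6 (SD, n = 3 each), a log2 difference of 3.81. BAK1, a pore former on chr6:33572547-33580293, was also higher in PC3 by 0.43 on the log2 scale. The other 7 called members were lower in PC3, by 1.20 to 2.94 on the log2(CPM + 1) scale, and they included all 5 BH3-only genes. The added 1 understates the differences of members low in PC3, such as BBC3 and BCL2. BCL2 averaged 1.41 CPM in PC3 and 4.54 CPM in P493-6. BBC3 on chr19:47220822-47232766, which encodes PUMA, stood at 0.761 ± 0.45 CPM in PC3 and 12.3 ± 0.67 CPM in P493-6. BCL2L11 on chr2:111119378-111168447, which encodes BIM, stood at 25.1 ± 1.7 CPM in PC3 and 126 ± 4.0 CPM in P493-6. MCL1 overlapped between the lines, at 178 ± 8.2 CPM in PC3 and 168 ± 4.3 CPM in P493-6 (log2 difference 0.09, 95% interval 0.00 to 0.17, adjusted p = 0.0568). That call was gained with TMM scaling (adjusted p = 0.0144), with edgeR (adjusted p = 0.00851) and with DESeq2 (adjusted p = 0.0325), and on leaving out PC3 DMSO replicate 1 (adjusted p = 0.0126) or P493-6 DMSO replicate 3 (adjusted p = 0.0473).

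Promoter sequence is shown for the 3 members whose 250 bases before the RefSeq transcription start held a match to a motif searched, because BAX repeats the E-box of MYC. The sequences are from RefSeq on GRCh38.p14, printed 5′ to 3′ on the gene's own strand, with motif matches in capitals. BAX is read on the plus strand of chr19:48954625-48954874, BBC3 on the minus strand of chr19:47232668-47232917, and BCL2L11 on the plus strand of chr2:111120664-111120913. The BCL2L11 window lies inside the deposited gene span. The windows of BAX and BBC3 overlap theirs in part, since the BAX span begins at base 48954815 and the BBC3 span ends at base 47232766.
BAX: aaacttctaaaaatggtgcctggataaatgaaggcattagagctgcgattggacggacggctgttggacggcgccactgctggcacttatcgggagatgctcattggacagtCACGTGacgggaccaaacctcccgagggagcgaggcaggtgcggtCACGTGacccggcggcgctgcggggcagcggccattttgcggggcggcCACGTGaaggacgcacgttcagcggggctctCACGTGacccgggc
BBC3: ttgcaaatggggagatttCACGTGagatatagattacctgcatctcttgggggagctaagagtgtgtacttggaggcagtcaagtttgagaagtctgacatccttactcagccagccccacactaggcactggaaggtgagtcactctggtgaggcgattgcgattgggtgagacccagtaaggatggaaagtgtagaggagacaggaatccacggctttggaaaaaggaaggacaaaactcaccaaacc
BCL2L11: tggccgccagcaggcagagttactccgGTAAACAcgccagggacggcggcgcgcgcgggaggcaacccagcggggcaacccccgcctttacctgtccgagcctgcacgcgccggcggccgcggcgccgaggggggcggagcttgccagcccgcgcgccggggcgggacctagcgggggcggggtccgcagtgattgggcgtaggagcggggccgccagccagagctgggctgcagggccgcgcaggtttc

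The E-box CACGTG, the letters that MYC and MAX bind in textbook examples, is a palindrome and was found 4 times before BAX, at bases -138 to -133, -93 to -88, -45 to -40 and -14 to -9 from the start. Of 35116 promoters of the same length, 2228 (6.34%) held CACGTG at least once and 5 (0.0142%) held it 4 or more times. BBC3 held it once, at bases -232 to -227. BCL2L11 held the forkhead letters GTAAACA at bases -223 to -217, found on either strand in 1046 promoters (2.98%). The letters TGATGNAA of an ATF4 and CHOP composite element (1104 promoters, 3.14%) and TGACGTCA of a cAMP response element (578 promoters, 1.65%) were in none of the windows of the 8 members matched to the table. MCL1 and BIK had no entry. A match is a description of letters, and the absence of one speaks only of these windows.

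In PC3, MYCi975 raised 3 BH3-only genes several-fold. BMF, BBC3 and PMAIP1 rose, as did BIK, MCL1 and, narrowly, BAX, while BCL2L11 and BAK1 fell. BCL2L1 and BCL2 were not called. The count was 8 of 10 members, 6 higher and 2 lower, on a background of 59.2% of 13751 genes called (29% higher and 30.1% lower). The same 8 members had groups that did not overlap, as did 61.9% of all genes. The median log2 change of the members was 0.33 and their median absolute change 0.52, beside -0.00 and 0.24 over all genes.

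Among the BH3-only genes, BMF on chr15:40087890-40108892 encodes a protein held at the cytoskeleton until stress frees it. BMF was at 35.0, 32.4 and 33.0 CPM with MYCi975 in PC3, against 7.47, 6.04 and 7.21 CPM with DMSO, a log2 change of 2.13 (SE 0.091, adjusted p = 2.1e-38). The groups were far apart, and 99.8% of genes had a smaller absolute change. PMAIP1 was at 99.9, 100.8 and 102 CPM with MYCi975, against 38.5, 35.8 and 41.2 CPM with DMSO, a log2 change of 1.37 (SE 0.052, adjusted p = 2.91e-42). BBC3, whose product binds all the guardians, was at 5.16, 2.90 and 5.66 CPM with MYCi975, against 1.26, 0.65 and 0.38 CPM with DMSO, which is 70, 41 and 80 reads against 20, 10 and 5 reads. Every treated library lay above every control, and the log2 change was 1.65 on the log2(CPM + 1) scale (SE 0.18, adjusted p = 6.39e-12). The added 1 understates the change of so low a gene: with a pseudocount of 0.1 it was 2.51, and with edgeR on recovered reads 2.54.

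BIK on chr22:43110748-43129712, which encodes a BH3-only protein of the endoplasmic reticulum, was also low, at 2.73, 3.26 and 2.62 CPM with MYCi975 in PC3 and 1.07, 2.21 and 1.52 CPM with DMSO. The groups did not overlap and the log2 change was 0.59 (SE 0.17, adjusted p = 0.00175). BCL2L11 moved the other way. It was at 15.4, 16.4 and 16.0 CPM with MYCi975, against 27.0, 24.7 and 23.6 CPM with DMSO, and fell by 0.62 in log2 units (SE 0.081, adjusted p = 9.94e-11). BIM activates BAX and BAK1 directly and binds every guardian. Of the 5 BH3-only genes, 4 thus rose and 1 fell.

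Among the guardians in PC3, MCL1 was at 239.6, 243 and 247 CPM with MYCi975, against 169, 183 and 182 CPM with DMSO, a log2 change of 0.45 (SE 0.036, adjusted p = 2.92e-20). BCL2L1 was at 322, 313 and 321 CPM with MYCi975 and 329, 312 and 315 CPM with DMSO. Its groups overlapped, its log2 change was -0.00 (95% interval -0.06 to 0.06, adjusted p = 0.999) and 0.0291% of genes had a smaller absolute change. BCL2 was at 2.51, 1.63 and 1.13 CPM with MYCi975 and 1.13, 1.43 and 1.67 CPM with DMSO, too low to bound its change tightly (log2 change 0.17, 95% interval -0.19 to 0.53, adjusted p = 0.442). Without PC3 MYCi975 replicate 1, the highest library, the value for BCL2 was -0.019.

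The pore formers in PC3 shifted slightly and in opposite directions. BAX on chr19:48954815-48961798 was at 18.2, 18.5 and 18.9 CPM with MYCi975, against 15.5, 15.3 and 17.0 CPM with DMSO, a log2 change of 0.21 (SE 0.086, adjusted p = 0.0331). That call is narrow: DESeq2 did not make it (adjusted p = 0.0841), nor did 5 of the 6 fits with a library left out (adjusted p of 0.0508 to 0.111). BAK1 was at 33.7, 35.5 and 38.2 CPM with MYCi975, against 45.1, 43.2 and 41.1 CPM with DMSO, and fell by 0.26 in log2 units (SE 0.062, adjusted p = 0.000157).

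**Figure D2:**
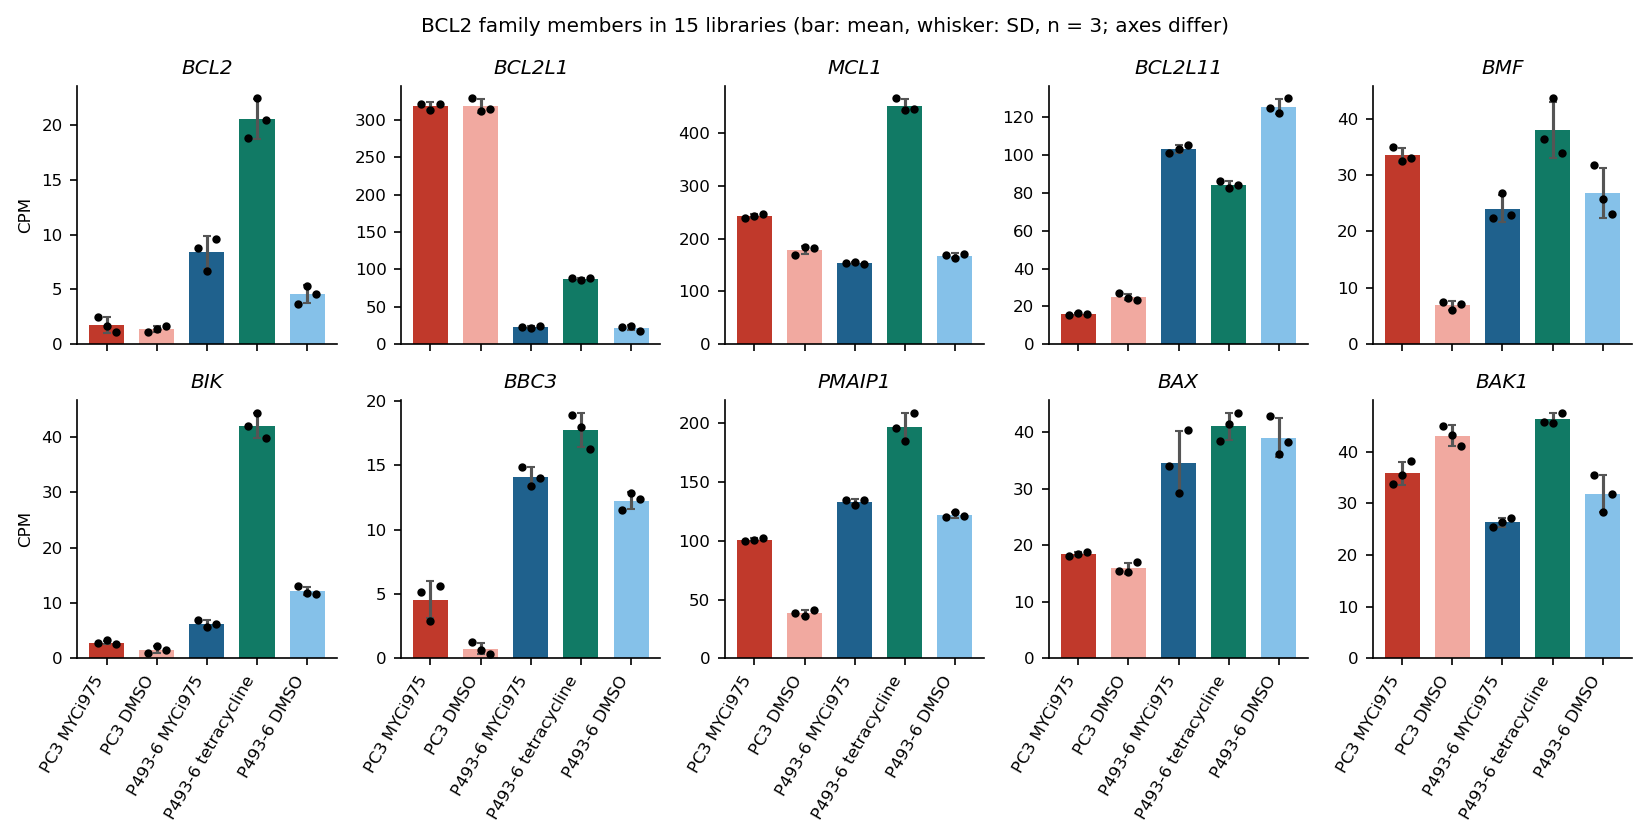
CPM of the 10 members in all 15 libraries, with 1 point per library, the bar at the group mean and the whisker at 1 SD (n = 3). Each panel has its own axis from 0. BMF, BBC3 and PMAIP1 separate MYCi975 from DMSO in PC3 (33.5 against 6.91 CPM for BMF), and BCL2, BCL2L1, MCL1 and BIK stand out with tetracycline in P493-6.

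In P493-6, MYCi975 moved the members less. BCL2 rose and BIK and BCL2L11 fell, while the changes of BAK1, MCL1 and PMAIP1 were small and depended on the method or on single libraries. BMF, the member that changed most in PC3, was not called. In all, 6 of 10 members were called, 2 higher and 4 lower, on a background of 28.6% of 12998 genes (10.6% higher and 18% lower). Over all genes the split was 1375 higher and 2338 lower, and with TMM scaling 1819 higher and 1690 lower, so small falls in this comparison lean on the scaling. The median log2 change of the members was -0.14 and their median absolute change 0.18, beside -0.04 and 0.15 over all genes.

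BCL2 was at 8.81, 6.71 and 9.58 CPM with MYCi975 in P493-6, against 3.68, 5.32 and 4.60 CPM with DMSO, a log2 change of 0.76 (SE 0.15, adjusted p = 0.0001). BCL2L1 was at 23.0, 21.2 and 24.9 CPM with MYCi975 and 22.5, 25.1 and 18.2 CPM with DMSO, and the groups overlapped (log2 change 0.08, 95% interval -0.12 to 0.27, adjusted p = 0.595). Without P493-6 DMSO replicate 3 the value for BCL2L1 was -0.045. MCL1 was at 154, 155 and 152 CPM with MYCi975, against 169, 163 and 171 CPM with DMSO, and its log2 change of -0.13 (SE 0.045, adjusted p = 0.0296) was -0.08 with TMM scaling (adjusted p = 0.18), -0.08 with edgeR (adjusted p = 0.174) and -0.08 with DESeq2 (adjusted p = 0.3). It also missed the threshold in 5 of the 6 fits with a library left out. Of the guardians, then, the rise of BCL2 is the call that held in every setting tried.

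BIK was at 6.93, 5.63 and 6.19 CPM with MYCi975 in P493-6, against 13.1, 11.8 and 11.7 CPM with DMSO, and fell by 0.86 in log2 units (SE 0.13, adjusted p = 4.96e-07). BCL2L11 was at 101, 103 and 105 CPM with MYCi975, against 125, 122 and 130.1 CPM with DMSO, and fell by 0.28 (SE 0.049, adjusted p = 1.36e-05). Neither gene's groups overlapped. PMAIP1 was at 135, 130.5 and 134 CPM with MYCi975, against 120.0, 125 and 121 CPM with DMSO, a log2 change of 0.13 (SE 0.047, adjusted p = 0.0394). That call held with TMM scaling, edgeR and DESeq2. It was lost with the replicate block and whichever library was left out (adjusted p of 0.0555 to 0.124 with a library left out). BMF was at 22.4, 26.8 and 22.9 CPM with MYCi975 and 31.7, 25.7 and 23.1 CPM with DMSO (log2 change -0.15, 95% interval -0.34 to 0.04, adjusted p = 0.263). BBC3 was at 14.9, 13.4 and 14.0 CPM with MYCi975 and 11.5, 12.9 and 12.4 CPM with DMSO. Its groups did not overlap, as for 40% of genes here, but the log2 change of 0.19 was not called (95% interval -0.03 to 0.40, adjusted p = 0.196).

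BAX was at 34.1, 29.3 and 40.4 CPM with MYCi975 in P493-6 and 42.8, 36.1 and 38.3 CPM with DMSO, with overlapping groups (log2 change -0.18, 95% interval -0.35 to -0.00, adjusted p = 0.128). Without P493-6 MYCi975 replicate 3 it was called, at -0.29 (adjusted p = 0.00825). BAK1 was at 25.5, 26.5 and 27.3 CPM with MYCi975, against 35.5, 28.4 and 31.8 CPM with DMSO, and fell by 0.26 (SE 0.083, adjusted p = 0.0146). The BAK1 call was lost with DESeq2 (adjusted p = 0.125), without P493-6 DMSO replicate 1 (log2 change -0.18, adjusted p = 0.137) and without P493-6 MYCi975 replicate 1 (adjusted p = 0.0627). Leaving out either of those libraries left 3 members called in place of 6.

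The difference between the MYCi975 responses of the lines was tested as an interaction over 12 libraries, the response in PC3 at 8 µM minus that in P493-6 at 6 µM. It was called for 7 of 10 members, 6 of them with the higher value in PC3, on a background of 36.3% of 11240 genes (18.1% higher and 18.2% lower). The gap was widest for BMF, at 2.27 (SE 0.14, adjusted p = 4.75e-16), followed by BBC3 at 1.47 (SE 0.24), BIK at 1.46 (SE 0.22), PMAIP1 at 1.24 (SE 0.070) and MCL1 at 0.57 (SE 0.056). BAX and BCL2L11 were the other members called. For BBC3 the gap was 2.32 with a pseudocount of 0.1. For BIK the responses had opposite signs, 0.59 in PC3 and -0.86 in P493-6, and both were called.

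BCL2L11 fell in both lines, by 0.34 more on the log2 scale in PC3 (SE 0.085, adjusted p = 0.00161). BAX differed by 0.38 (adjusted p = 0.0153), which missed the threshold without P493-6 DMSO replicate 1 (adjusted p = 0.0556) or without P493-6 MYCi975 replicate 2 (adjusted p = 0.0863). BAK1 fell by 0.26 in each line, and its difference of -0.00 has a 95% interval of -0.22 to 0.21. BCL2L1 differed by -0.08 (95% interval -0.33 to 0.18, adjusted p = 0.664). BCL2 differed by -0.59 (95% interval -1.09 to -0.08, adjusted p = 0.061) and passed the threshold with TMM scaling (adjusted p = 0.0466) and in 4 fits with a library left out (adjusted p of 0.0152 to 0.0442).

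**Figure D3:**
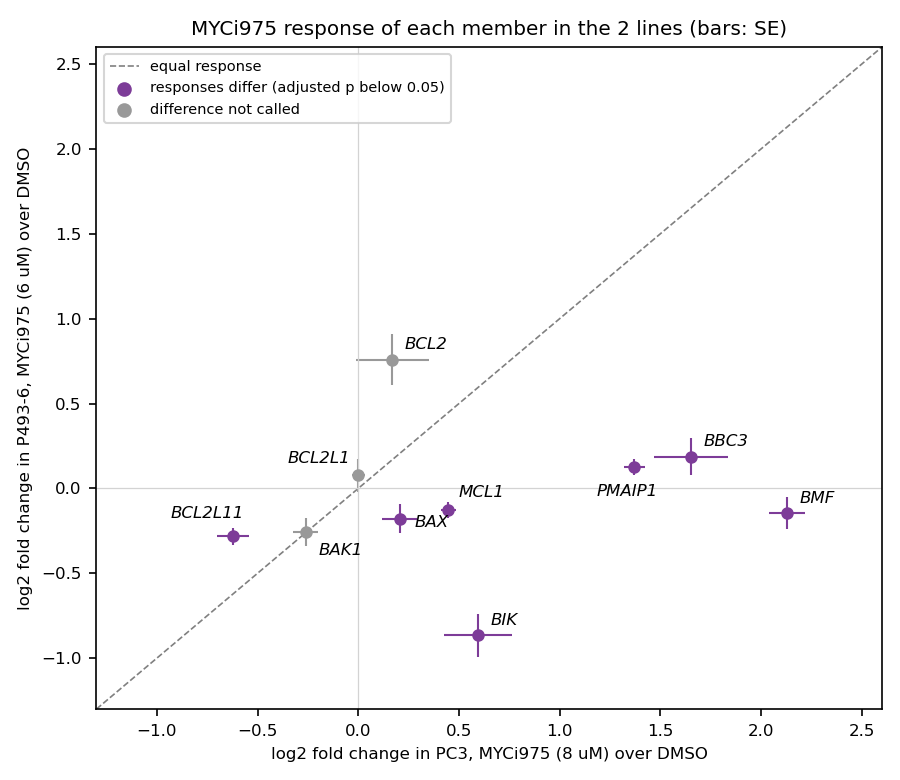
Log2 fold change of each member with MYCi975 over DMSO in PC3 at 8 µM (horizontal) and in P493-6 at 6 µM (vertical), with SE bars and a dashed line of equal response. BMF (2.13 in PC3 and -0.15 in P493-6), BBC3 (1.65 in PC3 and 0.19 in P493-6) and PMAIP1 (1.37 in PC3 and 0.13 in P493-6) lie far to the right of the line, and BAK1 (-0.26 in both) lies on it.

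In P493-6 cells with tetracycline, all 3 guardians rose. BCL2, BCL2L1 and MCL1 were higher by 1.42 to 1.97 on the log2 scale, and BIK, PMAIP1, BAK1, BBC3 and BMF rose too. BCL2L11 fell, and BAX was not called. That makes 9 of 10 members called, 8 higher and 1 lower, on a background of 78.1% of 13703 genes called (36.2% higher and 41.9% lower). The same 9 members had groups that did not overlap, as did 78.4% of all genes, so neither count in itself sets the members apart. In direction the members leaned higher, with 8 of 10 called higher beside 36.2% of all genes. That lean was not tested. The median log2 change of the members was 0.61, beside -0.05 over all genes, and their median absolute change 0.63, beside 0.62.

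BCL2 was at 18.8, 22.4 and 20.4 CPM with tetracycline, against a mean of 4.54 ± 0.82 CPM with DMSO, a log2 change of 1.97 (SE 0.13, adjusted p = 1.01e-16). BCL2L1 was at 87.9, 85.3 and 88.4 CPM with tetracycline, against 21.9 ± 3.5 CPM with DMSO, a log2 change of 1.96 (SE 0.082, adjusted p = 7.32e-22). MCL1 was at 466, 444 and 446 CPM with tetracycline, against 168 ± 4.3 CPM with DMSO, a log2 change of 1.42 (SE 0.042, adjusted p = 7.69e-29). No library of either group overlapped the other for any of the 3 guardians. In bulk RNA, fewer cells of a type and less RNA per cell cannot be told apart, and CPM is a share of each library's total.

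Among the BH3-only genes BIK had the largest rise, to 41.9, 44.3 and 39.7 CPM with tetracycline, against 12.2 ± 0.79 CPM with DMSO (log2 change 1.71, SE 0.092, adjusted p = 7.8e-20). PMAIP1 was at 196, 185 and 209 CPM with tetracycline, against 122 ± 2.5 CPM with DMSO (log2 change 0.68, SE 0.049, adjusted p = 5.08e-16). BBC3 and BMF rose by 0.50 (SE 0.11, adjusted p = 9.22e-05) and 0.49 (SE 0.099, adjusted p = 4.82e-05), with BMF at 36.4, 43.6 and 34.0 CPM with tetracycline, all above its DMSO libraries. BCL2L11 was at 86.5, 82.7 and 84.2 CPM with tetracycline, against 126 ± 4.0 CPM with DMSO, and fell by 0.57 (SE 0.052, adjusted p = 1.05e-12). BCL2L11 is thus the member that fell in all 3 comparisons with DMSO, of which the last 2 share their control libraries.

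BAK1 rose to 45.8, 45.6 and 47.6 CPM with tetracycline, against 31.9 ± 3.5 CPM with DMSO (log2 change 0.53, SE 0.079, adjusted p = 1.26e-07). BAX, whose promoter holds 4 E-boxes in the sequence shown, was at 38.6, 41.4 and 43.4 CPM with tetracycline and 42.8, 36.1 and 38.3 CPM with DMSO. Its groups overlapped, the log2 change was 0.07 (95% interval -0.08 to 0.23, adjusted p = 0.386), and 6.64% of genes had a smaller absolute change. With edgeR on recovered reads the BAX value was 0.16 (adjusted p = 0.0495).

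Markers of cell types moved in the same comparison. All 6 B cell markers rose with tetracycline, with a median log2 change of 1.55, and all 3 markers of other cell types rose. LYZ, lysozyme of myeloid cells, averaged 58.6 ± 3.8 CPM with tetracycline and 4.96 ± 0.44 CPM with DMSO. CD3E, of T cells, averaged 7.80 ± 0.69 CPM with tetracycline and 4.51 ± 0.87 CPM with DMSO. COL1A1, of fibroblasts, averaged 7.71 ± 0.88 CPM with tetracycline and 2.03 ± 0.79 CPM with DMSO. Of 5 epithelial markers, 2 were measured in this comparison: EPCAM fell by 2.16 (adjusted p = 3.55e-12), at 1.84 ± 0.94 CPM with tetracycline and 11.2 ± 0.61 CPM with DMSO, and KRT19 was not called. The part of these markers in the changes of the members was not tested.

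**Figure D4:**
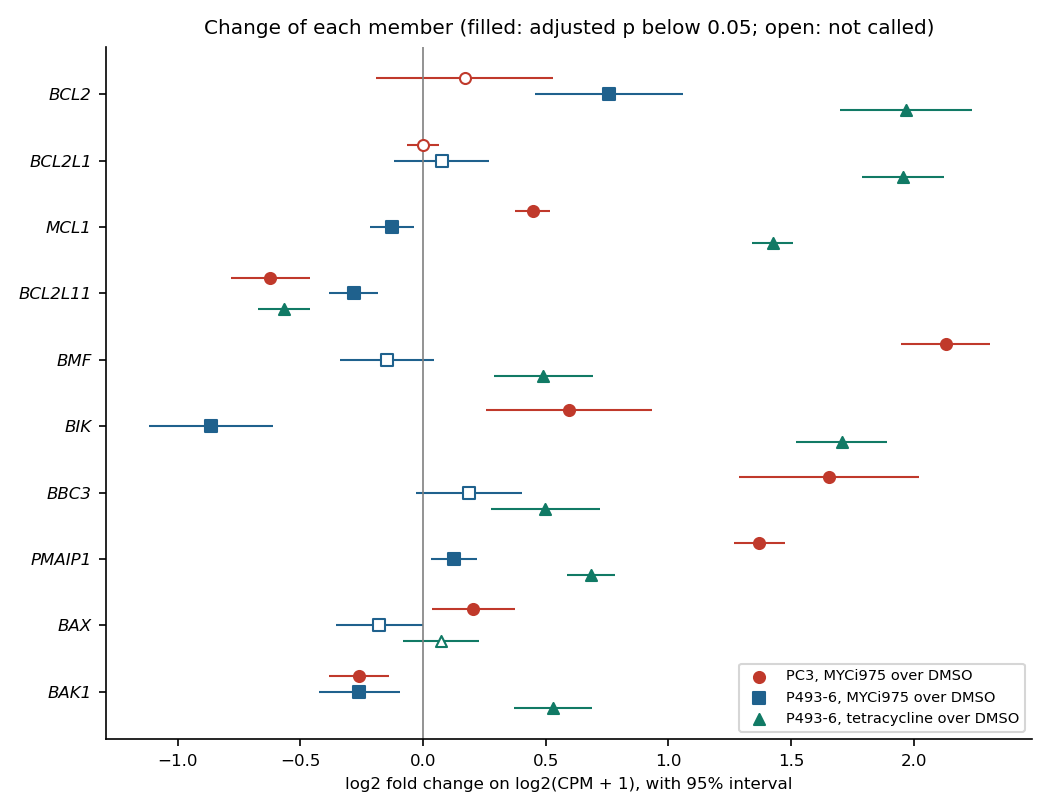
Log2 fold change of each member over the DMSO libraries of its line, with 95% intervals, for MYCi975 in PC3 (circles), MYCi975 in P493-6 (squares) and tetracycline in P493-6 (triangles). Filled symbols passed an adjusted p below 0.05. BCL2L11 lies left of 0 in all 3 comparisons (-0.62, -0.28 and -0.57), and the guardians BCL2, BCL2L1 and MCL1 lie far right with tetracycline (1.97, 1.96 and 1.42).

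MYCi975 and tetracycline were set against each other directly in the 9 P493-6 libraries. All 10 members were called, 9 lower and 1 higher with MYCi975, on a background of 76.2% of 12860 genes (42.3% higher and 33.9% lower). BIK stood furthest apart, at 6.25 ± 0.65 CPM with MYCi975 and 42.0 ± 2.3 CPM with tetracycline (log2 difference -2.57, SE 0.11, adjusted p = 3.95e-27). The guardians followed. BCL2L1 averaged 23.0 ± 1.8 CPM with MYCi975 and 87.2 ± 1.7 CPM with tetracycline (log2 difference -1.88, SE 0.085). MCL1 averaged 154 ± 1.3 CPM with MYCi975 and 452 ± 12 CPM with tetracycline (log2 difference -1.55, SE 0.042). For BCL2 the means were 8.37 ± 1.5 CPM with MYCi975 and 20.6 ± 1.8 CPM with tetracycline (log2 difference -1.21, SE 0.14), so the rise of BCL2 with MYCi975 was the smaller of its rises. BAK1, BMF, PMAIP1 and BBC3 were lower with MYCi975 by 0.31 to 0.79 on the log2 scale. BCL2L11 was the one member higher with MYCi975, by 0.29 (SE 0.051, adjusted p = 2.23e-06), a value of 0.18 with TMM scaling. BAX was lower by 0.25 with overlapping groups (adjusted p = 0.00905), and without P493-6 MYCi975 replicate 2 the value was -0.14 (adjusted p = 0.147).

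The rest of the family was followed in a list of 14 further genes. In PC3 with MYCi975, 11 were listed, of which 5 rose and 3 fell, beside 59.2% of all genes called, with a median log2 change of 0.02 beside -0.00 over all genes. HRK, another BH3-only gene, averaged 3.86 ± 0.49 CPM with MYCi975 and 0.576 ± 0.22 CPM with DMSO (log2 change 1.63), and BCL2L2, which encodes the guardian BCL-w, rose by 0.89. The guardian gene BCL2A1 fell by 0.57, at 10.1 ± 0.79 CPM with MYCi975 and 15.5 ± 1.8 CPM with DMSO. The readthrough gene BCL2L2-PABPN1 fell by 0.74, but it shares exons with BCL2L2 and its count is uncertain. In P493-6 with MYCi975, 3 of 10 rose and none was called lower: BNIP3L by 0.85 and BNIP3 by 0.56, both known for mitophagy, and BCL2L13 by 0.17. That share is close to the 28.6% of all genes called there. At an unadjusted p under 0.05, 1 was lower in limma, as it was called with the mean CPM filter, and edgeR and DESeq2 called 0 lower. With tetracycline, 4 of 10 rose and 3 fell, a share called under the 78.1% of all genes. The risers were led by BCL2A1, an NF-κB-responsive guardian, at 47.3 ± 2.5 CPM with tetracycline and 5.28 ± 0.61 CPM with DMSO (log2 change 2.95). HRK also rose with tetracycline, by 1.59, and BNIP3L by 0.80. BNIP3, which rose with MYCi975, fell by 1.38 with tetracycline, to 25.5 ± 2.3 CPM from 67.9 ± 5.3 CPM with DMSO. BID, which links death receptors to the mitochondria, fell by 0.78.

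A list of 17 genes, TRIB3 among them, was taken as regulators of the family's transcription, and a direct action of each was not tested. In PC3, 12 were listed, and 6 rose and 3 fell with MYCi975, beside 29% of all genes called higher and 30.1% lower. The median log2 change of the regulators was 0.10, against -0.00 over all genes. The risers were led by genes of the integrated stress response: TRIB3 by 3.73, DDIT3, which encodes CHOP, by 2.93, ATF4 by 1.85 and ATF3 by 1.77. ATF4 averaged 363 ± 12 CPM with MYCi975 and 99.8 ± 2.4 CPM with DMSO in PC3. In P493-6 with MYCi975, 8 of 16 rose and none was called lower, beside 10.6% of all genes higher and 18% lower. The stress response genes had smaller log2 changes than in PC3: ATF3 by 1.29, DDIT3 by 1.15 and TRIB3 by 0.58. ATF3 and DDIT3 averaged only 2.73 and 2.12 CPM in P493-6 with DMSO, where the added 1 understates a change. STAT5B, which was not listed in PC3, rose by 0.40. At an unadjusted p under 0.05, 1 regulator was lower in limma, and 1 was called lower without P493-6 MYCi975 replicate 3, while edgeR and DESeq2 called 0. With tetracycline, 12 of 17 rose and 4 fell, beside 36.2% of all genes higher and 41.9% lower. FOXO1 was up by 1.43 and MYB down by 1.38. TP73, up by 1.90, was low, at 4.45 ± 0.84 CPM with tetracycline and 0.494 ± 0.46 CPM with DMSO. Of the stress response genes, ATF3 rose by 1.45 and DDIT3 averaged 3.79 CPM with tetracycline and 2.12 CPM with DMSO. ATF4 averaged 135 CPM with tetracycline and 286 CPM with DMSO. TRIB3 averaged 23.2 CPM with tetracycline and 39.6 CPM with DMSO.

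All 19 genes of a list around the apoptosome, the caspases and their inhibitors were listed throughout. The list also held the mitochondrial genes VDAC1, VDAC2, VDAC3, AIFM1 and ENDOG, which are none of these. Some of the falls counted below are theirs, including VDAC3 in PC3, VDAC3 and AIFM1 in P493-6 with MYCi975, and VDAC1 and ENDOG with tetracycline. With tetracycline, VDAC2 (60.2 against 135.5 CPM with DMSO), VDAC3 (60.2 against 150.8 CPM) and AIFM1 (48.4 against 87.7 CPM) were also lower on average. With MYCi975, VDAC1 averaged 185 against 228 CPM in PC3 and 260 against 301 CPM in P493-6. VDAC2 did not fall with MYCi975, at 415 against 406 CPM in PC3 and 137.3 against 135.5 CPM in P493-6. In PC3 with MYCi975, 3 rose and 9 fell, close to the 59.2% of all genes called. They included BIRC5 (survivin), which fell by 1.11, and XIAP, a direct caspase inhibitor, which rose by 0.61. In P493-6 with MYCi975 none was called higher and 7 were called lower, or 4 with DESeq2, beside 28.6% of all genes called in either direction. In that comparison 0 were higher at an unadjusted p under 0.05 in limma or called higher by edgeR or DESeq2. CYCS, the gene of cytochrome c, was at 259.8 ± 7.8 CPM with MYCi975 and 343 ± 6.1 CPM with DMSO. With tetracycline, 8 rose and 10 fell, where 78.1% of all genes were called. CYCS fell by 2.26, to 71.2 ± 4.9 CPM with tetracycline, while APAF1, its partner in the apoptosome, rose by 1.45 and BIRC3 by 2.22. The median log2 change of this list was -0.10 in PC3, -0.16 in P493-6 with MYCi975 and -0.29 with tetracycline, beside -0.00, -0.04 and -0.05 over all genes.

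Of 12 death receptor genes, 10 were listed in PC3, where 5 rose and 1 fell, beside 29% of all genes higher and 30.1% lower, with FAS up by 0.62 and FADD, the adaptor, down by 0.32. A second fall was called on leaving out PC3 DMSO replicate 1, PC3 MYCi975 replicate 2 or PC3 MYCi975 replicate 3. In P493-6 with MYCi975, 1 of 11 rose (TNFRSF10B, by 0.17) and 1 fell (CASP8, by 0.32), a share called under the 28.6% of all genes. The TNFRSF10B call was lost without P493-6 DMSO replicate 2 (adjusted p = 0.0551) and without P493-6 MYCi975 replicate 2 (adjusted p = 0.0518). With tetracycline, 9 of 11 rose and 2 fell (1 with TMM scaling, edgeR or DESeq2), beside 36.2% of all genes higher and 41.9% lower. TNFSF10, the ligand TRAIL, was up by 2.62, CASP10 by 2.23 and CFLAR by 2.21. Of the TRAIL receptors listed, TNFRSF10A was down by 1.28. TNFRSF10B averaged 97.2 ± 3.9 CPM with tetracycline and 83.5 ± 2.7 CPM with DMSO. Of 18 partners and turnover factors of the family, 17 were listed. In PC3, 4 rose and 7 fell, with PIM1, a kinase that inactivates BAD, up by 1.45, beside 59.2% of all genes called. In P493-6 with MYCi975, 2 rose (4 with TMM scaling or edgeR) and 2 fell, a share called under the 28.6% of all genes, with PIM1 up by 0.57. With tetracycline, 5 rose and 11 fell, beside 78.1% of all genes called, with PIM1 up by 1.55 and BAG1, a BCL2-binding co-chaperone, down by 1.40.

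The genes whose pattern was most like each member's were named from 9775 genes by Pearson correlation over the 15 libraries, after each line's DMSO mean was taken off. The libraries fall into treatment groups and share controls, so r is a description. MCL1 was matched by ITSN2 and SWAP70 (both r = 0.997), BCL2L1 by ITM2B and RAB11FIP1 (both r = 0.995), and PMAIP1 by RBCK1 and HDAC5 (both r = 0.992). BCL2L11 was nearest to PSMC2 (r = 0.982), BIK to ATP2B1 (r = 0.982), BCL2 to FGFR1 (r = 0.978), BAK1 to HIVEP3 (r = 0.971) and BBC3 to NECAB3 (r = 0.959). BAX had the loosest match, SERAC1 at r = 0.865.

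The authors' deposited table marks genes at an adjusted p below 0.01, a stricter line than the one used here. In the authors' deposited table for PC3, BIK, BMF, BBC3, PMAIP1 and MCL1 are marked higher and BCL2L11 and BAK1 lower, with BAX unmarked. In the authors' deposited table for P493-6 with MYCi975, BCL2 and PMAIP1 are marked higher and BIK and BCL2L11 lower, and BAK1 and MCL1 are unmarked. In the authors' deposited table for tetracycline, 9 members are marked, all but BAX. No member carries a mark opposite to the direction found here.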

How the data were processed

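Total RNA from 50 ng input was made into stranded libraries with an exon capture kit, per the labels' protocols. Per the submitters' processing notes, STAR, HTSeq, edgeR and the hg38 build were used. Their versions are not stated in the labels. The authors deposited CPM per gene and library, with no further scaling. Whole reads were recovered from them for 100% of values within 0.001 reads, and every listed gene has a CPM above 1 in at least 2 libraries of its table. The tables also hold, per the file headers, the authors' log2 fold change, mean log2 CPM, likelihood ratio score, p-values, and marks.

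The plan assumed CPM, so the test was limma 3.58.1 (trend, robust) in R 4.3.3 on log2(CPM + 1), two-sided, with Benjamini-Hochberg adjustment over all genes tested and calls at an adjusted p below 0.05. It was tested on simulated data. Groups were counted as not overlapping where the lowest library of one exceeded the highest of the other. Fold changes of low genes are understated by the added 1. The interaction and line comparisons used the 11240 genes in the PC3 and P493-6 MYCi975 tables. CPM is set per library, so levels are shown across tables. Alternatives were a pseudocount of 0.1, TMM scaling, a mean CPM of at least 5, a replicate block, edgeR 4.0.16 and DESeq2 1.42.0 on recovered reads, all 9 P493-6 libraries, and leaving out each library. Exon lengths are from GENCODE v29, whose gene spans equal those in the files for all 10 members, and promoters from RefSeq.

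Named genes are the 10 members, MYC, up to 5 called genes with the largest absolute change per list and comparison, and up to 2 genes most like each member. Some genes that this rule names are not reported here. The members and gene lists were chosen with earlier results of these data known.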

Additional observations from a re-analysis of the deposited data

Results flagged for a closer look

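The MYCi975 response differed between the lines for 7 members by the interaction test in limma, as the response in PC3 minus that in P493-6 on the log2 scale. The values were 2.27 for BMF, 1.47 for BBC3, 1.46 for BIK, 1.24 for PMAIP1, 0.57 for MCL1, 0.38 for BAX and -0.34 for BCL2L11. BIK was called in opposite directions, higher in PC3 and lower in P493-6. So was MCL1, but its fall in P493-6 was narrow (-0.13, limma adjusted p = 0.0296). That MCL1 call was lost with TMM scaling, edgeR and DESeq2. Line, dose and the level of MYC, 300.4 to 309 CPM in PC3 DMSO libraries and 4692 to 4791 CPM in P493-6 DMSO libraries, cannot be told apart in these differences.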

How the results depend on the processing

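Every setting kept direction and call for 7 of 10 members in PC3 with MYCi975, 5 in P493-6 with MYCi975, 9 with tetracycline, 9 in MYCi975 against tetracycline, 6 in the difference of responses and 9 between the lines. The mean CPM filter removed BCL2, BIK and BBC3 in PC3, so it gave no value there. DESeq2 called 2447 genes in P493-6 with MYCi975, against 3713 in limma, and the cause was not tested. Leaving out 1 library gave 3 to 5 members called in that comparison, with fewer samples in each fit. All reversed values belong to members not called. For BCL2L1 in PC3 they were 0.0075 with TMM scaling, 0.0070 with edgeR and 0.0051 with DESeq2, and -0.014 to 0.023 with a library left out. The ranges with a library left out were -0.019 to 0.34 for BCL2 in PC3 and -0.045 to 0.18 for BCL2L1 in P493-6 with MYCi975. In the difference of responses they were -0.18 to 0.045 for BCL2L1 and -0.080 to 0.075 for BAK1.

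Same-numbered libraries did not deviate together (r of -0.11 to 0.07). With 3 libraries in each group, such values cannot exclude that same-numbered libraries were handled together. With the replicate block, 4 members were called in P493-6 with MYCi975 in place of 6: MCL1 stood at -0.13 (adjusted p = 0.0692) and PMAIP1 at 0.13 (adjusted p = 0.0798). Member counts in the other 5 comparisons were as without the block. Among genes named from the lists in P493-6 with MYCi975, CASP9 was lost with TMM scaling, edgeR, DESeq2 and 4 libraries left out in turn, BCL2L13 with the block and 3 libraries left out in turn, and AIFM1 with DESeq2. In PC3, BCL2, BIK and BBC3 rest on 5 to 80 reads per library, which limits the size of their changes.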
